A study of Rattus norvegicus with 2 samples.

Results

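The interleukins, the tumour necrosis factor (TNF) superfamily and their receptors were examined in rat lung. Members were all genes whose platform symbol starts with Il and a digit, Tnfsf or Tnfrsf, or is Tnf, Lta, Ltb or Cd40. The rule uses names and no measured value. It found 91 genes, measured by 111 probes, among 15611 named genes of the array: 36 ligands, 47 receptor chains and 8 inhibitors or decoys.

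Interleukins are secreted signals between blood, stromal and epithelial cells, and most act through paired receptor chains. Receptors of the IL-1 family signal through MyD88 to NF-kB, whereas the class I and II cytokine receptors signal through JAK kinases and STAT factors. TNF superfamily ligands are trimers, often membrane bound, and their receptors reach NF-kB through TRAF proteins or, where they carry a death domain, cell death. In lung these genes are known from T and B cells, macrophages, airway and alveolar epithelium and vessel walls.

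RNA of rat lung cells taken without culture and given no treatment was labelled with Cy3 and set against RNA of a common control, mix1, in Cy5, on 2 Agilent arrays (lung replicates 1 and 2). Mix1 pooled rat bone marrow cells grown in αDMEM and primary ear fibroblasts grown in DMEM, both with fetal bovine serum, in shares that no label states. Strain, the age of the lung donors and the number of animals are likewise unstated, so p-values measure only the spread between these samples and the spread between the arrays may be technical. The comparison asks how lung differs from these cultured cells, which the title of the series calls adult. Every value is the log2 ratio of the channels, read as lung over mix1. That direction is likely but not stated outright, and if it were turned every "higher" would be "lower". Mix1 is 1 control RNA, its own spread is absent from every SD and p, and with no dye swap a dye effect cannot be told apart from the difference between the RNAs. The number of arrays limits the precision, and single-channel intensities were not used here, so a ratio near 0 does not show whether a gene was bright or dim.

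The marker lists moved strongly. All 8 lung epithelium markers were higher in lung, with ratios from 3.94 to 7.95, as were all 8 endothelial markers (2.27 to 6.04), all 7 neutrophil markers (1.31 to 7.65), 13 of 15 T and NK cell markers (median 3.70), 7 of 8 mast cell markers (median 2.21) and 4 of 5 B cell markers (median 2.09). Macrophage markers split, with 4 of 8 higher and 3 lower, from -2.51 for Cd14 to 2.59 for Mrc1. All 10 fibroblast and stroma markers were lower, from -7.44 to -1.01. Fewer cells of a type and less RNA per cell cannot be told apart in such bulk RNA, and the part of these cell types in the results below was not tested.

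Members went both ways in nearly equal number. By limma's moderated test against 0, at a Benjamini-Hochberg adjusted p under 0.05 over all genes, 37 of 91 members were higher in lung and 36 lower, and 18 did not pass. Among all genes the same test called 32.9% higher and 49.7% lower, against 40.7% and 39.6% of the members. Because so many genes pass, a size rule is given as well: 22 members were at least 2-fold higher on both arrays and 17 at least 2-fold lower, that is 24.2% and 18.7%, where all genes gave 16.5% and 15.8%. Each of these 39 passed limma's test, with adjusted p from 0.00117 to 0.0438. The balance of test calls depends on centring. When each array's median gene was set to 0, which raised ratios by 0.22 on average, 51 members were higher and 23 lower. Of all 15611 genes, 6312 were then higher and 5916 lower. That refit also leaned more on the spread of other genes, with 7.95 prior degrees of freedom against 1.28. Calls gained in it thus do not rest on the shift of ratios alone. As deposited, the median member lay at 0.19 and the median gene at -0.22. On 85 members the arrays had the same sign, and the median SD between them was 0.07.

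**Figure D1:**
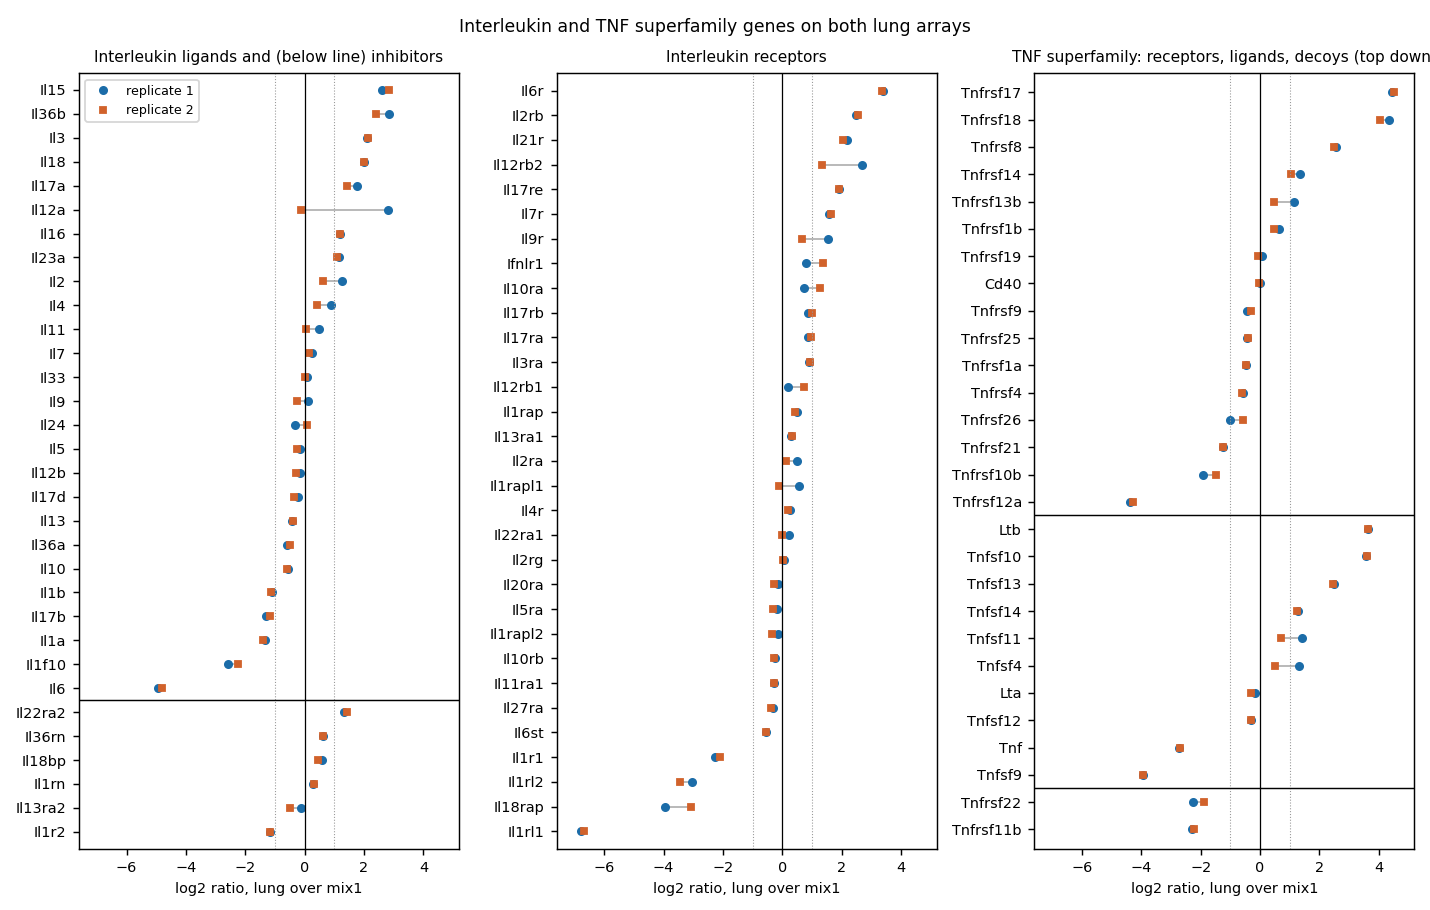
Log2 ratio of lung over mix1 (x axis) for all 91 members (y axis) on replicate 1 (circles) and replicate 2 (squares), ordered by mean within each role, with dotted lines at 2-fold. The gap between arrays is widest at Il12a (2.82 and -0.14), and the mean ratios run from -6.73 for Il1rl1 to 4.49 for Tnfrsf17.

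The lowest interleukin ligand was Il6, a secreted driver of the acute phase response. Its log2 ratio was -4.93 on replicate 1 and -4.82 on replicate 2, a mean of -4.87 ± 0.08 (SD, n = 2) or 29.3-fold lower in lung, with a limma adjusted p of 0.0012. Il1f10 (interleukin 38), an IL-1 family cytokine, lay at -2.57 and -2.26. The classical alarm cytokines of that family were lower by less: Il1a had ratios of -1.33 and -1.40, and Il1b of -1.10 and -1.12. Il17b, a member of the IL-17 family, had ratios of -1.29 and -1.15. All 5 were at least 2-fold lower on both arrays. For Il1b this rests on the mean of its probes, at -1.41 and -0.81, the latter under 2-fold. With array medians subtracted the mean of Il1b was -0.89.

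Among interleukin ligands higher in lung, the highest was Il15, which sustains natural killer cells and memory T cells. It had ratios of 2.61 on replicate 1 and 2.83 on replicate 2, a mean of 2.72 ± 0.16 or 6.60-fold, with a limma adjusted p of 0.0017. Il36b, an epithelial IL-1 family agonist, lay at 2.85 and 2.40. Il3, a growth factor of mast cells and basophils, lay at 2.10 and 2.13, and Il18, an inducer of interferon gamma that is stored as a precursor, at 1.99 on both arrays in the mean of probes at 0.89 and 3.09. Il17a, the effector cytokine of Th17 cells, had ratios of 1.77 and 1.43. Il16, a chemoattractant for CD4 cells, lay at 1.18 on both arrays, and Il23a, the p19 subunit of interleukin 23, at 1.16 and 1.08. These 7 of 26 interleukin ligands were at least 2-fold higher on both arrays, against 5 lower, or 26.9% and 19.2%, beside 16.5% and 15.8% of all genes.

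The other 14 interleukin ligands were under 2-fold on at least 1 array. Il2 and Il4, T cell cytokines, passed as higher at 0.94 and 0.65, where the probes of Il4 lay at -0.06 and 1.37. Il10, Il36a, Il13, Il17d, Il12b and Il5 passed as lower, with means between -0.58 and -0.22. With array medians subtracted Il10 and Il36a still passed, whereas Il13, Il17d, Il12b and Il5 did not, at means of -0.19, -0.07, -0.005 and 0.003, so these 4 calls rest on the centring. Il11, Il7, Il33, Il9 and Il24 did not pass, at means from -0.13 to 0.27. Of these, Il11, Il7 and Il33 passed as higher with array medians subtracted. The probes of Il33 differ in sign, at 0.53 and -0.42, so its mean describes neither. Il12a, the p35 subunit of interleukin 12, did not pass either: its single probe gave 2.82 on replicate 1 and -0.14 on replicate 2, the largest gap of any member, with an adjusted p of 0.308 in limma. With array medians subtracted its adjusted p was 0.015 in limma, in a fit that leans more on the spread of other genes (7.95 prior degrees of freedom against 1.28).

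Of 31 interleukin receptor chains, 6 were at least 2-fold higher in lung on both arrays and 4 lower, shares of 19.4% and 12.9% that lie near the 16.5% and 15.8% of all genes. Il6r, the ligand-binding chain for interleukin 6, was the highest interleukin receptor, with ratios of 3.40 on replicate 1 and 3.37 on replicate 2 and a mean of 3.39 ± 0.02 (SD, n = 2), or 10.5-fold (limma adjusted p 0.0012). Il2rb, the chain shared by interleukins 2 and 15, lay at 2.48 and 2.54. Il21r, a receptor of T and B lymphocytes, lay at 2.17 and 2.06, and Il7r, needed for lymphocyte survival, at 1.58 and 1.63. Il12rb2, the signalling chain of the interleukin 12 receptor on Th1 and natural killer cells, differed between arrays, at 2.68 and 1.34. Il17re, the epithelial receptor for interleukin 17C, lay at 1.90 and 1.92. T and NK cell markers lay from 0.23 for Cd8b to 6.18 for Cd3g, with 13 of 15 higher, and their part in these ratios was not tested.

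The 4 interleukin receptors at least 2-fold lower all belong to the IL-1 receptor family. Il1rl1, which encodes ST2, the receptor for interleukin 33, had ratios of -6.77 on replicate 1 and -6.69 on replicate 2, a mean of -6.73 ± 0.06 or 106-fold lower (limma adjusted p 0.0012). This mean and its SD hide a gap between its probes, which lay at -9.84 and -3.62. Il18rap, the accessory chain of the interleukin 18 receptor on T and natural killer cells, lay at -3.94 and -3.08, against the direction of most T and NK cell markers. Il1rl2, the receptor for interleukin 36, lay at -3.04 and -3.46, and Il1r1, the signalling receptor for interleukin 1, at -2.27 and -2.09. The decoy receptor Il1r2, which binds interleukin 1 without signalling, lay at -1.16 and -1.18. In contrast, Il1rap, the shared accessory chain of this family, was higher at 0.46 ± 0.04, and the 2 neuronal relatives Il1rapl1 and Il1rapl2 did not pass at 0.23 and -0.25. With array medians subtracted Il1rapl1 passed as higher and Il1rapl2 still did not pass. Sigirr, an inhibitory IL-1 family receptor outside the naming rule, had ratios of 3.94 and 3.78.

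The remaining interleukin receptors were under 2-fold on at least 1 array. Ifnlr1 (listed as Il28ra, the receptor for type III interferons), Il10ra, Il17rb, Il17ra, Il3ra, Il13ra1 and Il4r passed as higher, at means from 1.09 down to 0.22. Il6st, which encodes gp130, the signal chain shared by the interleukin 6 family, passed as lower at -0.56 ± 0.004, opposite to the binding chain Il6r, although 1 of its 3 probes lay at 0.39. Il27ra, Il11ra1, Il10rb, Il5ra and Il20ra also passed as lower, between -0.35 and -0.21, and with array medians subtracted none of these 5 passed and Il20ra had a mean of 0.01. Il9r, Il12rb1, Il2ra, Il22ra1 and Il2rg did not pass. With array medians subtracted all of them passed as higher, in a fit with 7.95 prior degrees of freedom against 1.28. Il9r moved from 1.11 to 1.33 and its limma adjusted p from 0.060 to 3.4e-05. These gained calls thus do not rest on the shift of ratios alone, and the probes of Il2ra lay at -0.84 and 1.44. The common gamma chain Il2rg lay at 0.05 and 0.04, although its partners Il2rb, Il7r and Il21r were each at least 2-fold higher.

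Interleukin inhibitors differed from each other. Il22ra2, a soluble binding protein for interleukin 22, was higher at 1.33 and 1.41 in the mean of its probes. Il36rn, Il18bp and Il1rn, antagonists of interleukins 36, 18 and 1, passed as higher at 0.62, 0.52 and 0.29. The probes of Il22ra2 and of Il36rn differ in sign. The decoy receptor for interleukin 13, Il13ra2, did not pass at -0.31 ± 0.26.

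The TNF superfamily ligands were led by Ltb, lymphotoxin beta, a membrane signal of lymphocytes that maintains lymphoid tissue. It had ratios of 3.65 on replicate 1 and 3.64 on replicate 2, a mean of 3.65 ± 0.01 or 12.5-fold (limma adjusted p 0.0012). Tnfsf10 (TRAIL), a death ligand, lay at 3.55 and 3.60. Tnfsf13 (APRIL), a survival factor of plasma cells, lay at 2.50 and 2.44, and Tnfsf14 (LIGHT), a costimulator of T cells, at 1.29 and 1.26. Lower in lung were Tnfsf9 (4-1BB ligand), also a costimulator, at -3.96 and -3.94, and Tnf itself, the founding inflammatory cytokine of the family, at -2.72 and -2.69. Tnf was thus 6.51-fold lower and Tnfsf9 15.4-fold lower. The 4 ligands left were closer to 0. Tnfsf11 (RANKL) passed as higher at 1.06 ± 0.51. Tnfsf4 (OX40 ligand) did not pass at 0.90 ± 0.58 but passed as higher with array medians subtracted. Lta and Tnfsf12 (TWEAK) passed as lower at -0.24 and -0.31, but not with array medians subtracted.

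Of 16 TNF receptors, 4 were at least 2-fold higher in lung on both arrays and 3 lower, or 25% and 18.8%, beside 16.5% and 15.8% of all genes. Tnfrsf17 (BCMA), the APRIL receptor of plasma cells, had ratios of 4.46 on replicate 1 and 4.52 on replicate 2, a mean of 4.49 ± 0.04 or 22.5-fold. Tnfrsf18 (GITR), known from regulatory T cells, lay at 4.33 and 4.03. Tnfrsf8 (CD30), of activated lymphocytes, lay at 2.55 and 2.49, and Tnfrsf14 (HVEM), the receptor for LIGHT, at 1.33 and 1.05. In limma the adjusted p of these 4 ran from 0.0012 to 0.0070. B cell markers were higher for 4 of 5 and T and NK cell markers for 13 of 15, and their part in these ratios was not tested.

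The lowest TNF receptor, Tnfrsf12a (Fn14), the TWEAK receptor of stromal and injured tissue, had ratios of -4.39 and -4.29, a mean of -4.34 ± 0.07 or 20.2-fold lower. Tnfrsf10b, a death receptor for TRAIL, lay at -1.94 and -1.48, and Tnfrsf21 (death receptor 6) at -1.26 and -1.25. Both TNF family decoys were lower: Tnfrsf11b (osteoprotegerin), which captures RANKL and is secreted by stromal cells, at -2.29 and -2.21, and Tnfrsf22, known from mouse as a decoy for TRAIL, at -2.26 and -1.90. Fibroblast and stroma markers moved the same way, 10 of 10 lower, with a part in these ratios that was not tested. Of the receptors for Tnf itself, the broadly expressed Tnfrsf1a passed as lower at -0.48 ± 0.004 and Tnfrsf1b, known from leukocytes, as higher at 0.55 ± 0.10. Tnfrsf26, Tnfrsf4 (OX40), Tnfrsf25 and Tnfrsf9 (4-1BB) passed as lower at means from -0.79 to -0.36, Tnfrsf25 and Tnfrsf9 not with array medians subtracted. Tnfrsf13b (TACI), Tnfrsf19 (TROY) and Cd40 did not pass. With array medians subtracted each of them passed as higher, Cd40 with an adjusted p of 0.044 in limma.

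The medians of ligands and receptors lay close together on each array. The median log2 ratio of ligands was 0.18 on replicate 1 and 0.04 on replicate 2, and that of receptors 0.21 and 0.04. The receptor median minus the ligand median was 0.032 on replicate 1 and -0.0064 on replicate 2, so the arrays gave it opposite signs. Over the means of the arrays the medians were 0.13 and 0.22. Of 36 ligands, 14 passed limma's test as higher and 15 as lower, or 38.9% and 41.7%. Of 47 receptors, 19 and 18 did, or 40.4% and 38.3%, beside 32.9% and 49.7% of all genes. By size, 11 ligands were at least 2-fold higher on both arrays and 7 lower, 50% of them, while 10 receptors were higher and 7 lower, 36.2% of them, beside 32.3% of all genes. Genes are not replicates, so no test was run over these sets. Within families, TNF ligands had a median of 0.98 (10 genes) and TNF receptors of -0.19 (16 genes), whereas interleukin ligands had -0.01 (26 genes) and interleukin receptors 0.30 (31 genes). These medians were not steady: that of TNF ligands was 1.30 on replicate 1 and 0.59 on replicate 2, and that of interleukin ligands 0.09 and -0.06. With array medians subtracted the TNF receptor median was 0.03 and the interleukin ligand median 0.21.

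**Figure D2:**
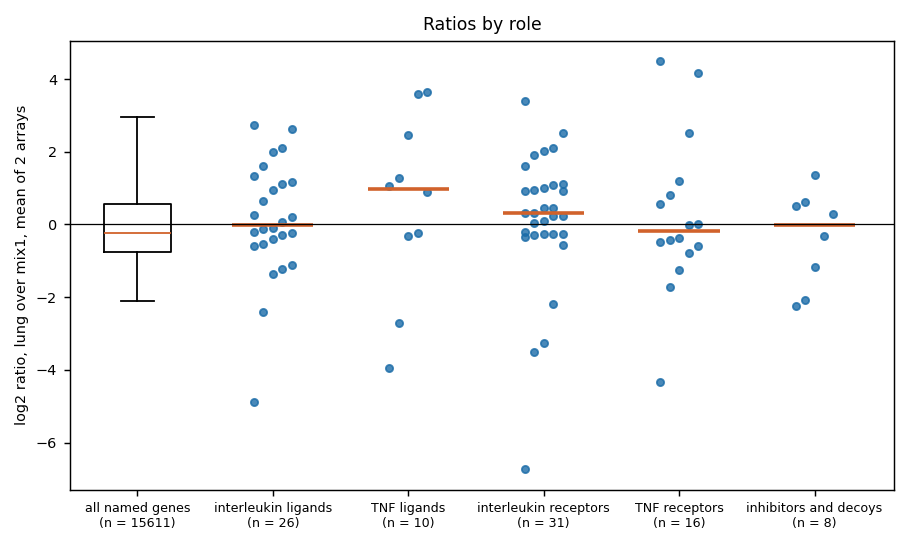
Mean log2 ratio of lung over mix1 (y axis) for each member by role, with orange lines at the medians, beside all 15611 named genes as a box with whiskers at the 5th and 95th percentiles. Ligand and receptor medians lie near 0, except for TNF ligands at 0.98 (1.30 and 0.59 on the separate arrays), and members of each role lie on both sides of 0.

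Known partners were then set side by side, 33 pairs of a ligand with a receptor chain, as written down from textbook knowledge. Both partners were at least 2-fold higher on both arrays in 3 pairs: Il15 with Il2rb (2.72 and 2.51), Tnfsf13 with Tnfrsf17 (2.47 and 4.49) and Tnfsf14 with Tnfrsf14 (1.27 and 1.19). Both were lower in 2 pairs, Il1a and Il1b with Il1r1. The place of Il1b rests on the mean of its probes, since the weaker probe lay at -0.81, under 2-fold. In 4 pairs the partners went opposite ways by this rule. Il6 was lower at -4.87 while Il6r was higher at 3.39, the widest gap of the 33 at 8.26. The reverse was seen for Il36b (2.63) with Il1rl2 (-3.25), Il18 (1.99) with Il18rap (-3.51) and Tnfsf10 (3.58) with Tnfrsf10b (-1.71). The place of Il18 in this group rests on the mean of its probes, since the lower probe lay at 0.89, under 2-fold. In 13 pairs a single partner passed 2-fold, and in 11 neither did. Il33 lay at 0.06 (probes at 0.53 and -0.42) beside Il1rl1 at -6.73 (probes at -9.84 and -3.62). Tnfsf12 lay at -0.31 beside Tnfrsf12a at -4.34, so in both pairs the receptor alone was 2-fold from 0. The reverse held for Tnf at -2.70, with Tnfrsf1a and Tnfrsf1b within 2-fold, and for Tnfsf9 at -3.95 with Tnfrsf9 at -0.36.

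**Figure D3:**
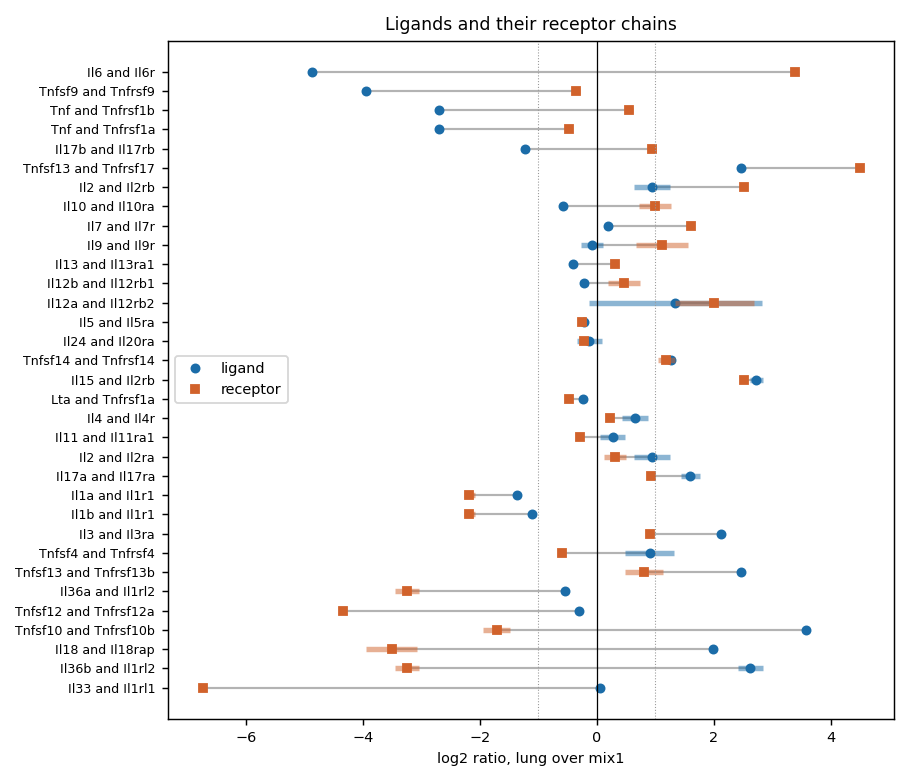
Log2 ratio of lung over mix1 (x axis) for 33 textbook pairs (y axis) of a ligand (circles, mean of 2 arrays) and a receptor chain (squares), with coloured bars spanning the arrays and dotted lines at 2-fold, ordered by receptor minus ligand. The pair Il6 and Il6r lies at the top with a gap of 8.26 and Il33 and Il1rl1 at the bottom with -6.79, a value that rests on the mean of Il1rl1 probes 6.22 apart.

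Members also share positions. On the RefSeq gene table of assembly GRCr8, 36 members fell into 14 groups of neighbours, with at most 2 protein-coding genes between them. The group on chromosome 9 holds Il1r2, Il1r1, Il1rl2, Il1rl1 and Il18rap in this order, and all 5 were at least 2-fold lower on both arrays. With array medians subtracted, the mean of Il1r2 was -0.95 and those of the other 4 stayed below -1.90. In 3 groups neighbours were 2-fold apart from 0 in opposite directions. On chromosome 20 Tnf (-2.70) lies between Lta (-0.24) and Ltb (3.65). On chromosome 3 Il36b (2.63) and Il1f10 (-2.41) share a group with Il36a, Il36rn and Il1rn, and on chromosome 9 Tnfsf9 (-3.95) lies near Tnfsf14 (1.27). The Th2 cytokine genes Il4, Il13 and Il5 on chromosome 10 all stayed under 2-fold.

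**Figure D4:**
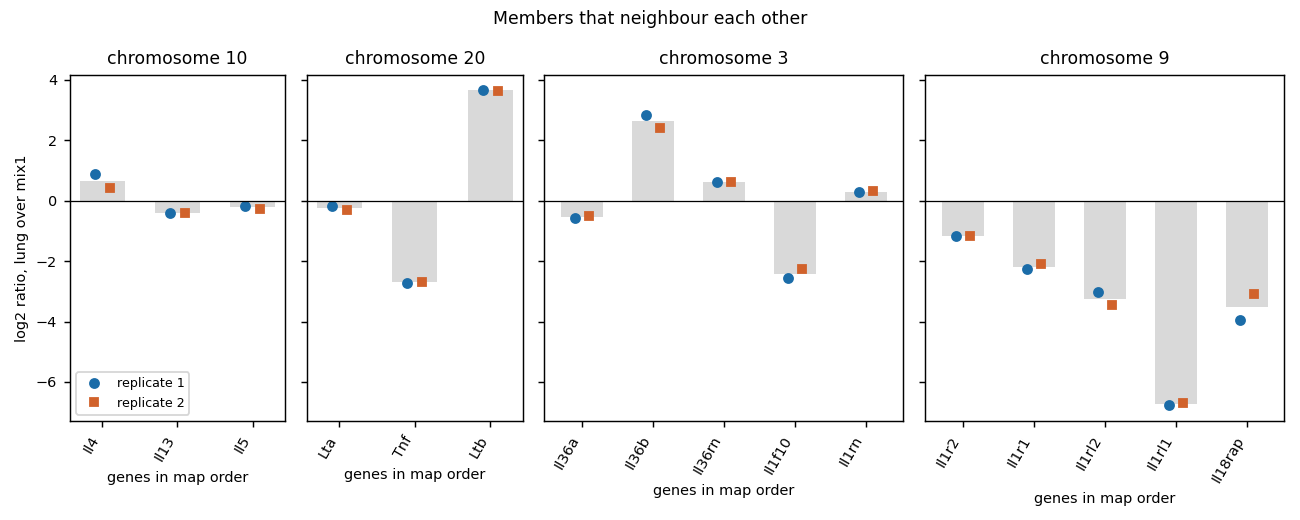
Log2 ratio of lung over mix1 (y axis) for the 4 groups of at least 3 neighbouring members, in map order along each chromosome (x axis), with bars at the mean and points for replicate 1 (circles) and replicate 2 (squares). All 5 genes of the chromosome 9 row lie below 0, whereas Tnf and Ltb on chromosome 20 lie at -2.70 and 3.65.

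Since NF-kB acts on many cytokine genes, promoters were searched for its textbook consensus motif of 10 letters, on both strands of the 250 bases before the start site. RefSeq promoters of build GRCr8 were matched by symbol for 69 of 91 members. The NF-kB motif was found in 11 of these 69 (15.9%), against 6.92% of 27457 genes with a promoter. The STAT motif TTCNNNGAA was found in 6 members (8.70%, against 8.19% of all genes) and the AP-1 motif TGANTCA in 7 (10.1%, against 6.99%). None of the 3 motifs can lie whole inside another. Among members at least 2-fold from 0, the NF-kB motif was found in 2 of 12 lower and 4 of 17 higher genes with a promoter. The windows of these 6 are given 5′ to 3′ on the gene's strand, with up to 40 bases on each side and the match in capitals, to show that genes at opposite ends such as Il6 at -4.87 and Ltb at 3.65 both hold a match. A match is a description of letters and not a bound site. Il6 (chr4:5894594-5894683, minus strand, match starting 68 bases before the start site) and Il1r1 (chr9:50034208-50034297, plus strand, 135 bases before) were lower in lung. Ltb (chr20:3634055-3634119, minus strand, 25 bases before), Tnfsf14 (chr9:2160217-2160306, minus strand, 180 bases before), Tnfrsf8 (chr5:162451737-162451827, minus strand, 167 bases before, with 2 overlapping matches) and Il12rb2 (chr4:97844943-97845032, minus strand, 55 bases before) were higher.
Il6: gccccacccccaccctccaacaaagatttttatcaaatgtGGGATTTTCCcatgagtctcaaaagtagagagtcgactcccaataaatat
Il1r1: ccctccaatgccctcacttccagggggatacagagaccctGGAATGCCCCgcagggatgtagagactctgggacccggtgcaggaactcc
Ltb: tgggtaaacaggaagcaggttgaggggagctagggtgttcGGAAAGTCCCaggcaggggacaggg
Tnfsf14: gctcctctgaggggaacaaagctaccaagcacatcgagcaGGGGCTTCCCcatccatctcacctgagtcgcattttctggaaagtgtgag
Tnfrsf8: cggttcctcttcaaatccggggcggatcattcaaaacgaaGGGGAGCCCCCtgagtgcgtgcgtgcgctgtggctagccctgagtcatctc
Il12rb2: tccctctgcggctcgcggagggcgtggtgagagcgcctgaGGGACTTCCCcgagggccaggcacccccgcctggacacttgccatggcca

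Probes of a gene disagreed in many members. Of 91 members, 75 rested on a single probe. In the 16 with several, probes lay over 2 apart on the log2 scale in 7 (43.8%), against 14.8% of all 3767 genes with several probes, and their signs differed in 9 (Cd40, Il22ra2, Il36rn, Il2ra, Il17ra, Il6st, Il4, Il13ra1 and Il33). Cd40, the receptor of B cells and antigen-presenting cells, showed the clearest case. One probe gave 1.42 and 1.57 and the other -1.43 and -1.62, so that the mean of -0.01 describes neither. Both probes of Il1rl1 were low, but at -9.85 and -9.84 for one and -3.70 and -3.54 for the other, and they are annotated to different RefSeq transcripts. The fold of Il1rl1 therefore depends on the probe, and its direction does not.

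The 5 others over 2 apart were Il22ra2, Il36rn, Il2ra, Il17ra and Il18. For Il22ra2 the probes lay at -0.26 and 2.998 in the mean of the arrays, and for Il36rn at -0.57 and 1.81. For Il2ra, the high-affinity chain of the interleukin 2 receptor, they lay at -0.84 and 1.44, and for Il17ra, the shared interleukin 17 receptor, at -0.20 and 2.05. These 4 have no direction that both probes share. Both probes of Il18 were higher, at 0.89 and 3.09. Probes came close to each other in Tnfrsf12a (-4.48 and -4.20), Il1r1 (-2.60 and -1.76), Il1b (-1.41 and -0.81) and Il7r (from 1.13 to 2.02), and Il6st spanned -1.16 to 0.39 over 3 probes.

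**Figure D5:**
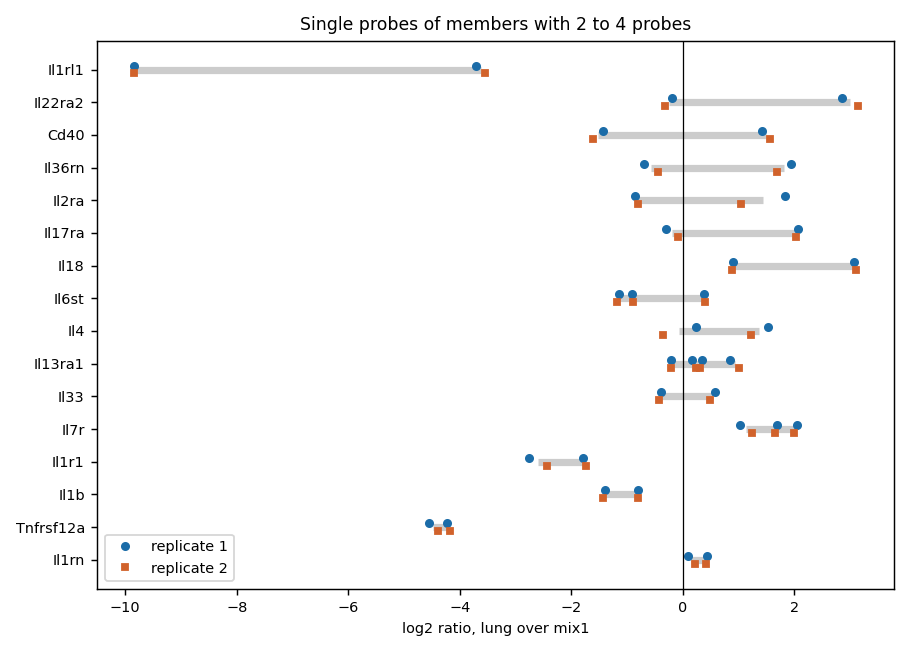
Log2 ratio of lung over mix1 (x axis) of each probe of the 16 members with several probes (y axis), on replicate 1 (circles) and replicate 2 (squares), with grey bars joining the probe means, ordered by spread. Probes of Il1rl1 lie 6.22 apart on the same side of 0, and those of Cd40 3.02 apart on opposite sides.

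Genes that carry these signals or belong to the same families under other names were counted by the same test. Of 21 measured JAK and STAT genes, 8 were higher and 9 lower (median -0.10), that is 38.1% and 42.9%, near the 32.9% and 49.7% of all genes. Stat4, which transmits interleukin 12 signals, lay at 4.79 and the feedback inhibitor Socs2 at 3.40, and Socs5 and Socs4 at -1.23 and -1.11. Of 34 NF-kB and death domain genes, 13 were higher and 17 lower (median -0.14), or 38.2% and 50%, again near all genes. A single gene of this list, the ubiquitin ligase Birc2 at 1.29, was at least 2-fold higher on both arrays and 6 were lower. These are 2.94% and 17.6% of the list, beside 16.5% and 15.8% of all genes. Among the 6 were the necroptosis kinase Ripk3 at -2.45 and the IL-1 receptor pathway inhibitor Irak3 at -1.72. The kinase Irak4 passed at 0.86. Stat4 had ratios of 5.44 and 4.15 on the separate arrays, and Ripk3 of -2.47 and -2.43.

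Of 10 TNF superfamily genes under other names, 2 were higher and 6 lower (median -0.32), or 20% and 60%, beside 32.9% and 49.7% of all genes. Faslg, the Fas ligand of cytotoxic cells, lay at 6.50 on replicate 1 and 6.34 on replicate 2, above every member, and Cd40lg, a helper T cell ligand, at 1.93 and 1.32. The receptors Ltbr, which binds lymphotoxin beta, and Fas lay at -1.67 and -1.35. Ltb and Faslg were thus higher in lung while the receptor of each was lower. Of 20 related cytokines and receptors, 7 were higher and 10 lower (median -0.29), or 35% and 50%, near the same shares of all genes. Sigirr at 3.86 and Csf2 (GM-CSF) at 2.74 were the highest, and the epithelial and stromal cytokine Tslp at -3.68 and the oncostatin M receptor Osmr at -2.36 the lowest. The medians of these 4 lists ran from -0.32 to -0.10, beside -0.22 for all genes.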

How the data were processed

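Lung RNA (Cy3) and mix1 RNA (Cy5) were hybridised together on 2 arrays. Per the submitters' processing notes, Agilent Feature Extraction was used, with its version, background correction and dye normalization not given in the sources used here. The deposited values were taken as log2 ratios, lung over mix1: no source states the base, and their range (-11.74 to 9.09) is too wide for base 10. They were used as deposited, with array medians at -0.16 and -0.21 over 40012 probes.

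GEO's platform annotation names 20417 probes, and symbols were updated through RefSeq accessions, current symbols or synonyms (GRCr8). Probes of a gene were averaged. The 15611 genes entered 1 limma fit (version 3.58.1, R 4.3.3; intercept, eBayes, Benjamini-Hochberg, adjusted p under 0.05), with 1 residual and 1.28 prior degrees of freedom. The step was tested on simulated data.

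Members and lists were chosen with earlier results of these data known, and the ligand and receptor pairs and motifs after the files were seen. Values per array are given for up to 6 highest and 6 lowest members of each role. Such members pass the test and are 2-fold on both arrays. Cd40, Il1rl1 and Il12a, whose probes or arrays disagree, and a few further members also have values per array. For the other members with probes over 2 apart, probe means over the arrays are given. The remaining members are given by mean, range or call. From the other lists, the 2 highest and 2 lowest that pass are named. Alternatives were centring, scaling (by median absolute values, limma's scale method for log ratios, since its form for plain matrices cannot take negative medians), the lower middle probe, robust eBayes, treat, a threshold of 0.01, single probes, annotation symbols, and each array alone.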

Additional observations from a re-analysis of the deposited data

How the results depend on the processing

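Each ratio already pairs lung with mix1 on its array, and no further pairing was possible because lung is the only group. With the sign turned every direction is the opposite, and the receptor median minus the ligand median is -0.10. Under treat against 2-fold, 18 members were higher and 14 lower, with 9 and 5 ligands and 8 and 6 receptors, since that test asks for more. The share of all genes that pass treat is not given here. With array medians subtracted, lower calls fell to 23 members, 9 ligands and 11 receptors, and among all genes from 7765 to 5916. The medians were then 0.35 for ligands and 0.45 for receptors. At an adjusted p under 0.01, 11 receptors were lower. With the lower middle probe the medians were -0.074 for ligands and 0.042 for receptors. For a gene with 2 probes this setting always takes the lower probe, so the value of such a gene cannot rise. With 1 array left out, the ligand median ran from 0.043 to 0.18, the receptor median from 0.037 (without replicate 1) to 0.21 and their difference from -0.0064 to 0.032. Members at least 2-fold higher then numbered 25 to 28 and those lower 17 to 18, with 1 array to satisfy. No test exists on a single array. The next results cover 43 members picked for their size on both arrays or for disagreeing probes or arrays. Among these, Cd40, Il12a and Il2ra passed as higher with array medians subtracted, Cd40 at 0.21. Members outside the 43 also gained a higher call there, such as Il33, Il7 and Il9r. The probes of Cd40, Il2ra and Il33 differ in sign, so their higher calls rest on means over such probes. Cd40 went to -1.52, then passing as lower, with the lower middle probe. With the same setting Il17ra went to -0.20, Il22ra2 to -0.26, Il2ra to -0.84 and Il36rn to -0.57. Like Cd40, these genes have 2 probes, so each value is that of the lower probe. Under treat 8 of the 43 no longer passed (Il12rb2, Il17a, Il17b, Il17ra, Il1b, Il36rn, Tnfrsf10b and Tnfrsf14), and Il12rb2 did not at 0.01. Over all 91 members the loss was larger, as higher calls fell from 37 to 18 and lower calls from 36 to 14. Scaling, robust eBayes, single probes and annotation symbols moved no count of calls by over 1.5 times. The filter on values at 0 or repeated at the ends of the range removed nothing and was not run. Signal over background is unknown here, which limits how far large ratios can be read as sizes.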
